A study of Homo sapiens with 6 samples.

Results

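To describe how the protein quality control of the endoplasmic reticulum (ER) was expressed after calmegin depletion, 41 genes were read from a table of 58735 genes. They were taken by gene symbol, and the symbols were chosen with earlier results of these data known. They comprise 9 sensors and their transcription factors and proteases, 11 chaperones and co-chaperones, 6 genes of the translocon, and 15 genes of ER-associated degradation (ERAD). CLGN encodes calmegin, a lectin chaperone of the ER membrane. RNA was sequenced from Hep-G2, an established human liver cancer line, transduced with lentivirus that carried either a hairpin targeting CLGN (sh-CLGN, 3 libraries) or a control hairpin (sh-NC, 3 libraries). Both groups passed through lentiviral transduction and puromycin selection, each rests on 1 hairpin, and the labels give the same batch entry for all 6 libraries. The labels do not say that the libraries came from separate cultures, so p-values measure the spread between these libraries, which may be technical.

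Secretory and membrane proteins enter the ER through the Sec61 channel and are folded there by chaperones, chief among them the Hsp70 protein BiP, which works with J-domain co-chaperones and nucleotide exchange factors. When unfolded proteins accumulate, the membrane sensors IRE1, PERK and ATF6 start the unfolded protein response, which lowers the protein load and raises the transcription of chaperones and degradation factors. Proteins that fail to fold are recognized by lectins, moved back through the ER membrane, ubiquitinated, pulled out by the ATPase p97 and degraded by the proteasome, a route that hepatocytes depend on because they secrete most plasma proteins.

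Levels are given as FPKM, a fragment count divided by the length of the gene and the size of the library, and changes as differences of log2(FPKM + 1), sh-CLGN minus sh-NC, so that changes of weakly expressed genes come out too small. The library sizes inside the deposited FPKM were not the read totals. They were 0.933 to 0.953 of the recovered reads in the sh-NC libraries and 1.07 to 1.08 of them in the sh-CLGN libraries, and the mean total FPKM with sh-CLGN was 91.5% of that with sh-NC. The libraries held 14955816 to 16244639 reads with sh-NC and 15086344 to 15675776 with sh-CLGN. All 8 hepatocyte markers were expressed, with a summed level of 7004 to 7245 FPKM with sh-NC and 7116 to 7586 with sh-CLGN. The summed level of 8 fibroblast and stellate markers was 6.72 to 8.28 FPKM with sh-NC and 47.5 to 49.1 with sh-CLGN. Of the 8, 5 were expressed, and DCN and THY1 had no more than 3 reads in any library. For 4 endothelial markers, of which 1 was expressed, the sums were 3.33 to 3.67 and 2.38 to 2.65 FPKM, and for 4 leukocyte markers, of which 1 was expressed, they were 68.7 to 76.3 and 60.7 to 67.9. Mitochondrial genes took 3.25 to 4.02% of the reads with sh-NC and 5.49 to 5.80% with sh-CLGN. The part of these differences in the results below was not tested. In these bulk libraries, fewer cells of a type and less RNA per cell cannot be told apart.

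The targeted gene was examined first. CLGN (ENSG00000153132) measured 24.1, 21.1 and 26.1 FPKM in the sh-NC libraries and 9.48, 8.88 and 8.6 in the sh-CLGN libraries. Every sh-CLGN library was below every sh-NC library, and the group means were 23.8 ± 2.54 and 8.98 ± 0.453 FPKM (SD over 3 libraries, log2 change -1.31, SE 0.081, limma with Benjamini-Hochberg adjusted p = 8.35e-06).

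Of the 41 genes, 40 passed a filter of 1 FPKM in at least 3 libraries and were tested among 13074 genes. DERL3, a derlin of the ERAD channel, had at most 4 reads in any library and was not tested. At an adjusted p of at most 0.05, 10 of the 40 were higher in sh-CLGN, against a background of 26.7% of all tested genes higher, and 20 were lower, against 39.0%. Called in either direction were 75.0% of the 40 genes and 65.8% of all tested genes. With an added requirement of an absolute log2 change of at least 1, ATF6B and DNAJB9 passed, 5% of the genes against 6.28% of all. The libraries of the groups did not overlap for 32 genes, 80% against 70.2% of all. Shares of this size stood near those of the whole table. The median log2 change of the 40 genes was -0.16, and that of all tested genes was -0.08. The split of 10 higher and 20 lower, and the direction of small changes, depended on the scaling. The split became 15 and 16 when FPKM was computed from read totals, and 16 and 12 after quantile normalization.

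**Figure D1:**
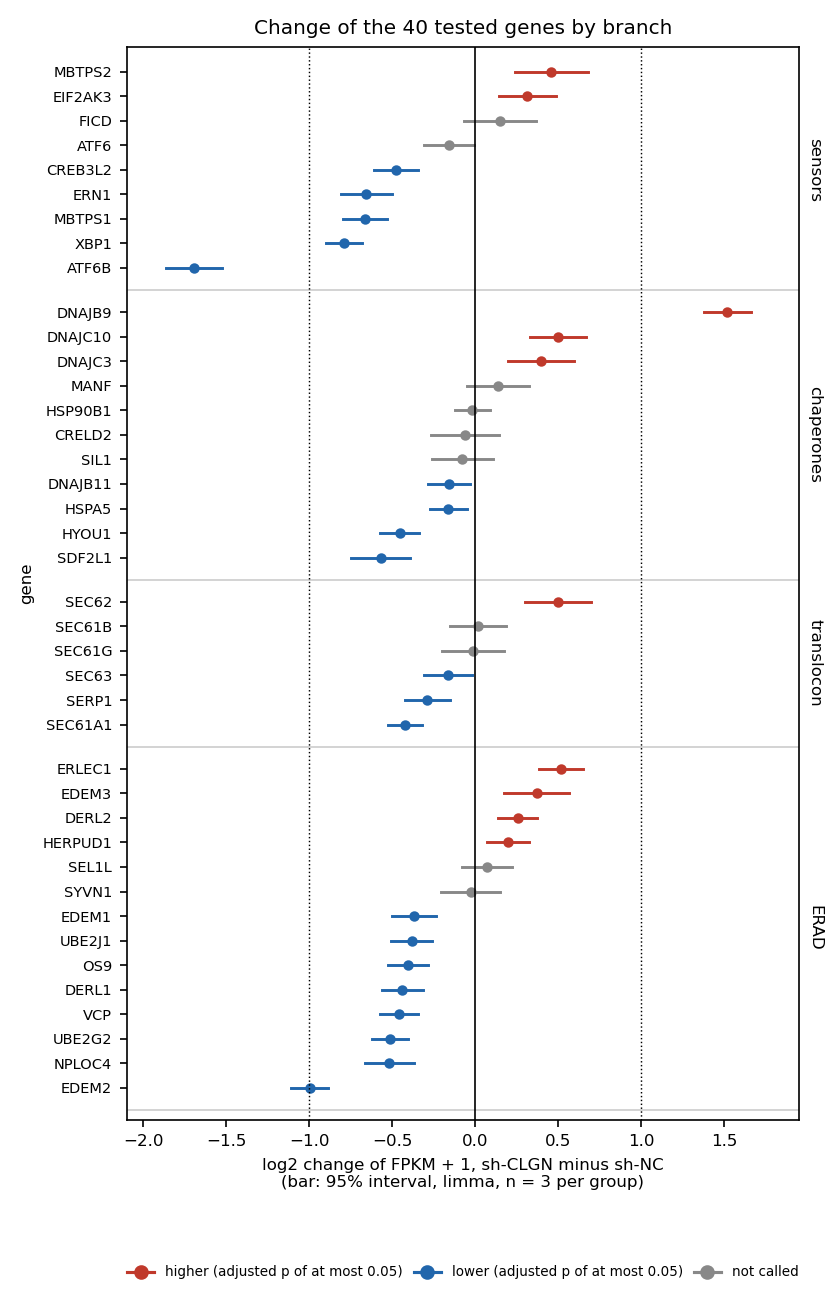
Log2 change (x axis, FPKM + 1, sh-CLGN minus sh-NC) of the 40 tested genes, one row per gene, grouped by branch. Points are limma estimates with 95% intervals (n = 3 libraries per group), red for higher, blue for lower and grey for not called, and dotted lines mark an absolute change of 1. ATF6B at -1.69 and DNAJB9 at 1.52 stand outside the lines, and EDEM2 lies at -0.999.

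The promoters of these genes are shown because the unfolded protein response acts on many of them through short known elements. RefSeq windows on GRCh38.p14, from 250 bases before to 50 bases after each annotated start, were found for 39 of the 41 genes (43 windows), leaving out DERL1 and DERL3. On both strands a search was made for ERSE (CCAAT, any 9 bases, CCACG), ERSE-II (ATTGG, any 1 base, CCACG) and UPRE (TGACGTGG). ERSE is bound by ATF6 with the factor NF-Y, and UPRE by spliced XBP1. ERSE was found in 6 genes, which is 15.4% of the 39 against 0.0916% of the 27305 genes with a window. ERSE-II was found in 3 genes (7.69% against 0.0696%) and UPRE in 5 genes (12.8% against 0.927%). Any of these elements stood in 13 of the 39 genes, 33.3% against 1.08% of all genes. The ERSE and ERSE-II elements are printed 5′ to 3′ on the strand that carries them, with the fixed bases in capitals and distances counted back from the RefSeq start.
XBP1: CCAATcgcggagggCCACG (chr22:28800603-28800621, 52 to 34 bases before the start, same strand as the gene)
FICD: CCAATgggagtggcCCACG (chr12:108515123-108515141, 154 to 136 bases before the start, same strand)
HSPA5: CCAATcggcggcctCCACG (chr9:125241391-125241409, 66 to 48 bases before the start, same strand)
HSP90B1: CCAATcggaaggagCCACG (chr12:103930216-103930234, 194 to 176 bases before the start, same strand)
HSP90B1: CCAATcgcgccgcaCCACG (chr12:103930321-103930339, 89 to 71 bases before the start, opposite strand)
CRELD2: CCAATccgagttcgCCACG (chr22:49918554-49918572, 80 to 62 bases before the start, opposite strand)
SERP1: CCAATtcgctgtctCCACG (chr3:150546710-150546728, 232 to 214 bases before the start, opposite strand)
HYOU1: ATTGGaCCACG (chr11:119057380-119057390 and chr11:119057274-119057284, 185 to 175 and 79 to 69 bases before the start, opposite strand)
SDF2L1: ATTGGtCCACG (chr22:21642114-21642124, 188 to 178 bases before the start, opposite strand)
HERPUD1: ATTGGgCCACG (chr16:56932025-56932035, 117 to 107 bases before the start, same strand)
UPRE stood in the windows of DNAJC10, SEC62, UBE2J1, VCP and HYOU1, where it overlapped the more distant ERSE-II. No element was matched in the windows of ATF6B, DNAJB9 or EDEM2, the genes with the largest changes.

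The windows of HSPA5 and DNAJB9, whose products work as a pair, are given whole, since one holds an ERSE and the other holds none of the elements. Each is printed 5′ to 3′ on the strand of its gene, with the ERSE in capitals. HSPA5 lies on the minus strand (chr9:125241294-125241593, 61.3% G and C), and DNAJB9 on the plus strand (chr7:108569624-108569923, 63.7% G and C).
HSPA5: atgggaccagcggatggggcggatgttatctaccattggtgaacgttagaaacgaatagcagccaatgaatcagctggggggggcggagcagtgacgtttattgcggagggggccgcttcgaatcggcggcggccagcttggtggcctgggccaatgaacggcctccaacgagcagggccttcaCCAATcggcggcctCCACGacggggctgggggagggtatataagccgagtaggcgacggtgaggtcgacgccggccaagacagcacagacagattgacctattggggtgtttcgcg
DNAJB9: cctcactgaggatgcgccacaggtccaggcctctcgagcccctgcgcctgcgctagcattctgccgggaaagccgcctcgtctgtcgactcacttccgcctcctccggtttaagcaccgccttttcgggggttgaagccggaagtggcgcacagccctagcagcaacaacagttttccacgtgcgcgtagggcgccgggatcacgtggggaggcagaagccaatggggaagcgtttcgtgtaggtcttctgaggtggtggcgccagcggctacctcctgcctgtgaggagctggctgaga

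Genes that carry the same element did not all move one way. Of the 9 genes with an ERSE or ERSE-II, HERPUD1 was higher in sh-CLGN, and HSPA5, HYOU1, SDF2L1, SERP1 and XBP1 were lower. The remaining 3, CRELD2, FICD and HSP90B1, were not called. Of the 5 genes with a UPRE, DNAJC10 and SEC62 were higher and HYOU1, UBE2J1 and VCP were lower. Beside these counts, 26.7% of all tested genes were higher and 39.0% were lower. A match is a description of these letters in this window and was not tested as a site.

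Among the sensors, 2 of 9 genes were higher (22.2%, against 26.7% of all tested genes) and 5 were lower (55.6% against 39.0%). The median log2 change was -0.48, against -0.08 over all. The ATF6 family showed the widest difference between relatives. ATF6B, the less studied paralog of ATF6 (ENSG00000213676, GRCh38, chr6:32115264-32128253), measured 18.6, 19.7 and 16.4 FPKM with sh-NC and 4.97, 4.74 and 5.09 with sh-CLGN. Each sh-CLGN library was far below each sh-NC library, and the group means were 18.2 ± 1.69 and 4.93 ± 0.176 FPKM (log2 change -1.69, SE 0.073, limma adjusted p = 2.24e-06). A larger fall was found in 0.252% of all tested genes. Neighbouring genes shared 360 of the exon bases of ATF6B (9.92%), and those neighbours were near 0 in both groups. ATF6, the better known membrane-bound factor that is cut in the Golgi to release its active part, measured 6.81, 6.73 and 7.61 FPKM with sh-NC and 6.48, 6.19 and 5.93 with sh-CLGN. Its libraries did not overlap, but the change did not pass (log2 change -0.16, 95% interval -0.31 to -0.01, adjusted p = 0.0598). Within each library the ratio of ATF6B to ATF6 was 2.16 to 2.93 with sh-NC and 0.766 to 0.858 with sh-CLGN, so ATF6B was the more abundant of the pair per unit length with sh-NC and the less abundant with sh-CLGN.

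The proteases that cut ATF6 in turn also parted. MBTPS1, the site-1 protease, which makes the cut on the lumenal side, measured 26.1, 28.6 and 26.5 FPKM with sh-NC and 15.8, 17.2 and 17.2 with sh-CLGN. The level was lower in every sh-CLGN library (log2 change -0.66, SE 0.057, limma adjusted p = 3.76e-05). MBTPS2, the site-2 protease, which cuts within the membrane, measured 2.87, 2.77 and 3.52 FPKM with sh-NC and 4.09, 4.97 and 4.62 with sh-CLGN. All 3 sh-CLGN libraries were above the sh-NC libraries (log2 change 0.46, SE 0.094, adjusted p = 0.00326). The ratio of MBTPS1 to MBTPS2 was 7.52 to 10.3 with sh-NC and 3.45 to 3.87 with sh-CLGN. CREB3L2, a membrane-bound factor released by the same proteases, fell from 39.8 ± 1.78 to 28.3 ± 1.46 FPKM (adjusted p = 0.000186).

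The kinase sensors moved in opposite directions. ERN1, which encodes IRE1α, the kinase and endoribonuclease that splices XBP1 mRNA, measured 6.41, 6.41 and 5.81 FPKM with sh-NC and 3.51, 3.42 and 3.79 with sh-CLGN, where every library was lower (limma adjusted p = 7.53e-05). EIF2AK3, which encodes PERK, the kinase that slows translation, measured 6.09, 6.64 and 7.25 FPKM with sh-NC and 8.27, 9.14 and 8.14 with sh-CLGN, where every library was higher (adjusted p = 0.00646). Their ratio, ERN1 to EIF2AK3, was 0.80 to 1.05 with sh-NC and 0.374 to 0.466 with sh-CLGN. XBP1, the substrate of IRE1α, measured 365, 369 and 345 FPKM with sh-NC and 206, 207 and 209 with sh-CLGN. A table of values per gene does not separate its spliced from its unspliced form. FICD, the enzyme that switches BiP off by AMPylation, was low, with 1.06, 1.12 and 0.878 FPKM with sh-NC and 1.31, 1.27 and 1.13 with sh-CLGN (58 to 95 reads per library). The FICD libraries did not overlap, and the change did not pass (log2 change 0.15, 95% interval -0.07 to 0.36, adjusted p = 0.189).

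**Figure D2:**
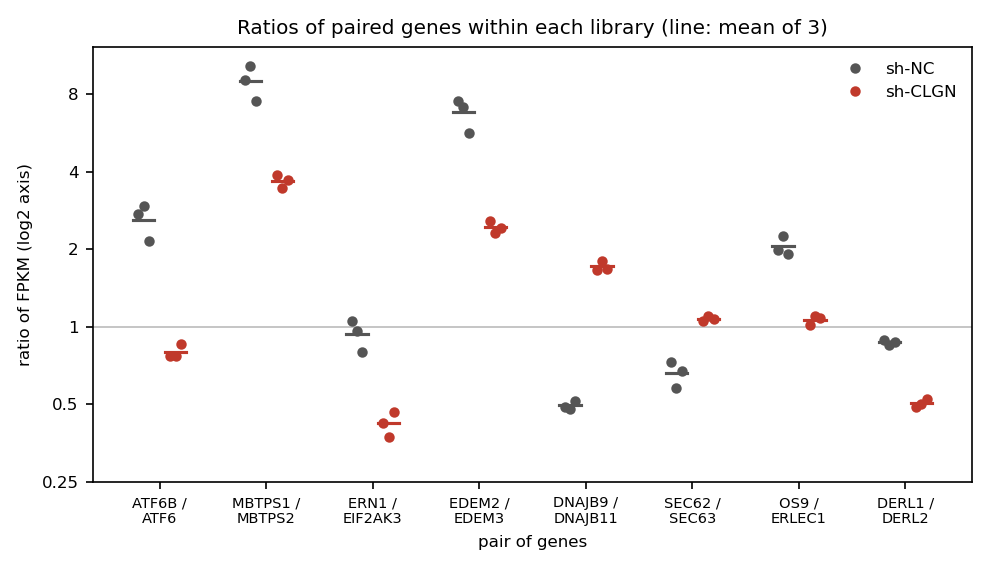
Ratio of FPKM values within each library for pairs of related genes (y axis, log scale), with sh-NC and sh-CLGN libraries as points (3 each) and a line at their mean. The ATF6B to ATF6 ratio was 2.16 to 2.93 with sh-NC and 0.766 to 0.858 with sh-CLGN, and the DNAJB9 to DNAJB11 ratio was 0.480 to 0.514 and 1.66 to 1.80.

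Among the chaperones, 3 of 11 genes were higher (27.3%, against 26.7% of all tested genes) and 4 were lower (36.4% against 39.0%). The median log2 change was -0.06, against -0.08 over all. The abundant folding enzymes changed little. HSPA5, which encodes BiP, measured 298, 323 and 303 FPKM with sh-NC and 276, 273 and 275 with sh-CLGN. The level was lower in all 3 sh-CLGN libraries by a small amount (log2 change -0.16, SE 0.049, limma adjusted p = 0.0184), a direction that turned to 0.032 with scaling by read totals and to 0.18 after quantile normalization. It was not called without sh-NC replicate 2 (-0.13) or without sh-CLGN replicate 1 (-0.17), 2 (-0.16) or 3 (-0.16). HSP90B1, the ER Hsp90 called GRP94, measured 199, 199 and 209.8 FPKM with sh-NC and 204, 196 and 199.9 with sh-CLGN. Its libraries overlapped and the change was not called (log2 change -0.02, 95% interval -0.12 to 0.09, adjusted p = 0.753).

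The J-domain co-chaperones of BiP did not share a direction. DNAJB9, or ERdj4, which holds IRE1 in an inactive complex with BiP and feeds clients to degradation, had the largest rise (ENSG00000128590, GRCh38, chr7:108569568-108574850). It measured 8.24, 8.14 and 9.0 FPKM with sh-NC and 26.9, 26.8 and 24.6 with sh-CLGN. All 3 sh-CLGN libraries stood far above the sh-NC libraries, with means of 8.46 ± 0.471 and 26.1 ± 1.32 FPKM, a ratio of 3.09 (log2 change 1.52, SE 0.061, limma adjusted p = 1.69e-06). A larger rise was found in 0.765% of all tested genes. THAP5, on the opposite strand, shared 183 of its exon bases (6.45%) and measured 3.11 and 4.68 FPKM on average in sh-NC and sh-CLGN, while PNPLA8, also opposite, shared 99 bases and measured 3.54 and 7.43 FPKM. Whether counting used strand was not stated, so reads in these shared bases cannot be assigned. DNAJB11, or ERdj3, which binds unfolded clients for BiP, measured 16.9, 16.9 and 17.5 FPKM with sh-NC and 16.2, 14.9 and 14.7 with sh-CLGN. Its small difference passed as lower (log2 change -0.16, adjusted p = 0.0327) but turned to 0.026 with scaling by read totals and to 0.050 after quantile normalization. Without any 1 library other than sh-CLGN replicate 1 it was not called (log2 changes of -0.17 to -0.13). The ratio of DNAJB9 to DNAJB11 was 0.480 to 0.514 with sh-NC and 1.66 to 1.80 with sh-CLGN, and that of HSPA5 to DNAJB9 was 33.7 to 39.7 and 10.2 to 11.2.

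DNAJC10, or ERdj5, a disulfide reductase that prepares proteins for degradation, measured 3.76, 3.69 and 4.39 FPKM with sh-NC and 6.20, 5.96 and 5.75 with sh-CLGN, and was higher in each sh-CLGN library (log2 change 0.50, SE 0.073, limma adjusted p = 0.000529). DNAJC3, or p58IPK, an inhibitor of PERK and co-chaperone of BiP, measured 7.76, 8.34 and 10.1 FPKM with sh-NC and 11.9, 11.7 and 11.5 with sh-CLGN (log2 change 0.39, SE 0.086, adjusted p = 0.00433). Thus 3 of the 4 J-domain co-chaperones in this branch were called higher, beside 26.7% of all tested genes. DNAJB11 was called lower, a call that depended on the scaling and on single libraries.

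Other partners of BiP were lower or were not called. HYOU1, a large Hsp70 that acts as a nucleotide exchange factor for BiP, measured 54.9, 56.1 and 51.3 FPKM with sh-NC and 38.2, 38.9 and 40.3 with sh-CLGN, where each library was lower (log2 change -0.46, SE 0.051, limma adjusted p = 0.000134). SIL1, the other exchange factor, measured 9.72 ± 0.881 and 9.16 ± 0.698 FPKM, and its libraries overlapped (log2 change -0.08, 95% interval -0.26 to 0.11). SDF2L1, which forms a complex with DNAJB11, measured 44.6, 43.2 and 36.8 FPKM with sh-NC and 28.9, 26.5 and 27.3 with sh-CLGN and was lower in each (log2 change -0.57, SE 0.077, adjusted p = 0.000355). MANF, a secreted factor that binds BiP, measured 21.2 ± 0.417 and 23.5 ± 2.79 FPKM (log2 change 0.14, 95% interval -0.05 to 0.32), with sh-CLGN replicate 1 highest at 26.6. CRELD2, an ER protein induced by stress, measured 9.64 ± 1.27 and 9.13 ± 0.261 FPKM (log2 change -0.06, 95% interval -0.27 to 0.14). The libraries of both overlapped, and neither was called.

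Among the genes of the translocon, 1 of 6 was higher (16.7%, against 26.7% of all tested genes) and 3 were lower (50% against 39.0%). The median log2 change was -0.09, against -0.08 over all. SEC61A1, the pore-forming subunit of the channel, measured 178, 178 and 169 FPKM with sh-NC and 130.1, 129.5 and 130.7 with sh-CLGN. Its level was lower in all 3 sh-CLGN libraries (log2 change -0.42, SE 0.044, limma adjusted p = 9.15e-05), but it was not called after quantile normalization (-0.098). The small subunits of the same complex did not pass, SEC61B with 87.3 ± 6.56 and 88.4 ± 6.08 FPKM (log2 change 0.02, 95% interval -0.15 to 0.19) and SEC61G with 55.8 ± 5.25 and 55.2 ± 3.82 FPKM (log2 change -0.01, 95% interval -0.20 to 0.17, turning to 0.27 after quantile normalization). Whether the change of the pore subunit differed from theirs was not tested.

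SEC62 and SEC63 form the complex that helps short or slow precursors through the channel. SEC62 measured 12.6, 10.4 and 13.4 FPKM with sh-NC and 17.8, 17.8 and 16.9 with sh-CLGN, where each library was higher (log2 change 0.50, SE 0.086, limma adjusted p = 0.00128). SEC63, a J-domain protein that recruits BiP to the channel, measured 17.4, 18.0 and 19.9 FPKM with sh-NC and 16.9, 16.2 and 15.7 with sh-CLGN. It passed narrowly as lower (log2 change -0.17, adjusted p = 0.0459), a direction that turned to 0.018 with scaling by read totals and to 0.054 after quantile normalization. Without any 1 library other than sh-NC replicate 1 it was not called (log2 changes of -0.19 to -0.11). The ratio of SEC62 to SEC63 was 0.579 to 0.727 with sh-NC and 1.05 to 1.10 with sh-CLGN. SERP1, which protects membrane proteins at the translocon during stress, measured 22.5, 22.1 and 19.9 FPKM with sh-NC and 17.8, 17.4 and 16.9 with sh-CLGN (log2 change -0.29, SE 0.059, limma adjusted p = 0.00307), with no overlap. SERP1 was not called with scaling by read totals (-0.10) or after quantile normalization (-0.055).

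**Figure D3:**
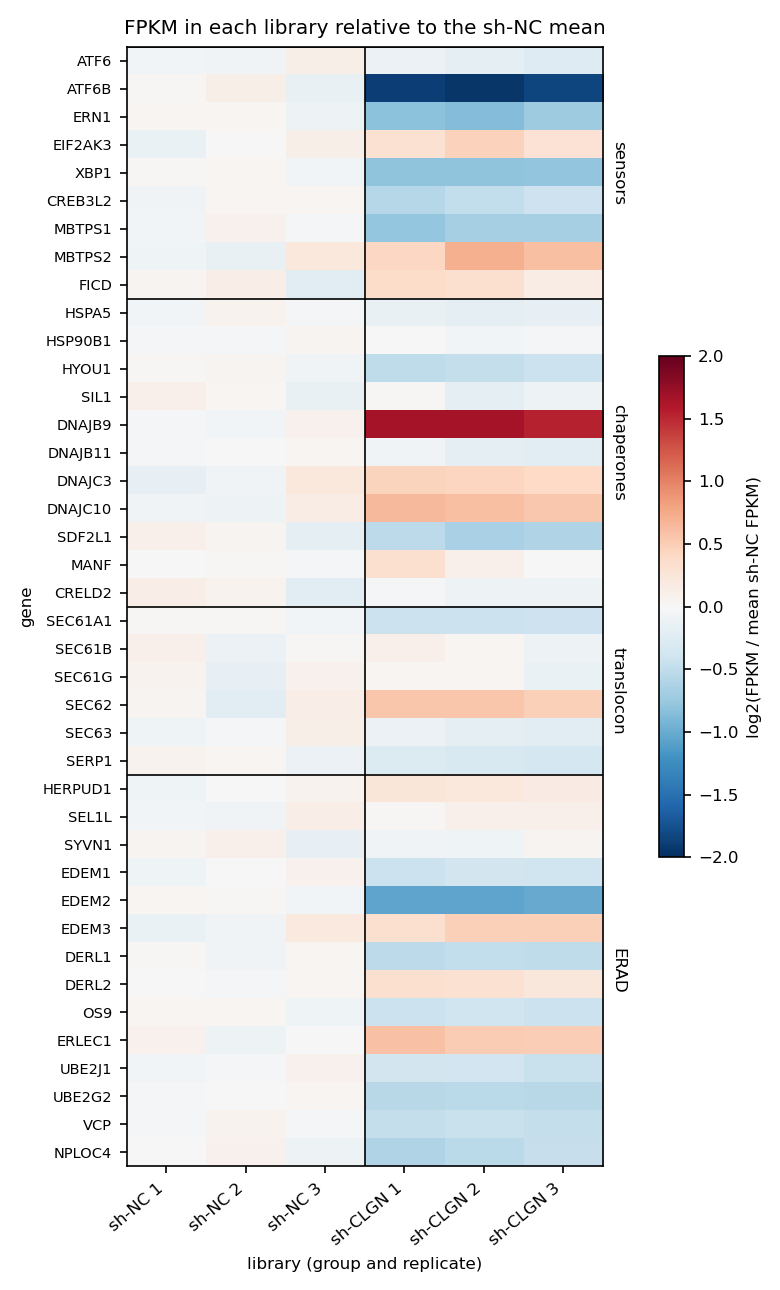
Level of each of the 40 tested genes in each library as log2 of its FPKM over the mean of the sh-NC libraries, by branch, with sh-NC replicates 1 to 3 and sh-CLGN replicates 1 to 3 as columns. Red is above and blue below the sh-NC mean. The 3 sh-CLGN columns share their colour in ATF6B (mean 4.93 against 18.2 FPKM) and in DNAJB9 (26.1 against 8.46 FPKM).

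Among the ERAD genes, 4 of the 14 tested were higher (28.6%, against 26.7% of all tested genes) and 8 were lower (57.1% against 39.0%). The median log2 change was -0.38, against -0.08 over all. The mannosidase-like proteins that mark misfolded glycoproteins for degradation differed most. EDEM2, which takes part in the trimming of mannose (ENSG00000088298, GRCh38, chr20:35115357-35147364), measured 37.4, 36.9 and 35.1 FPKM with sh-NC and 17.6, 17.5 and 18.2 with sh-CLGN. Every sh-CLGN library was below every sh-NC library, and the mean in sh-NC was 2.06 times that in sh-CLGN (log2 change -0.999, SE 0.048, limma adjusted p = 3.01e-06), a size that lies at the limit of 1 and just short of it. EDEM1, which delivers clients to the degradation complex, measured 17.6, 18.8 and 19.9 FPKM with sh-NC and 14.0, 14.6 and 14.3 with sh-CLGN, and was lower in each (log2 change -0.37, adjusted p = 0.000697), though not called after quantile normalization (-0.16). EDEM3, which continues the trimming, measured 4.96, 5.16 and 6.19 FPKM with sh-NC and 6.81, 7.55 and 7.53 with sh-CLGN, and was higher in each (log2 change 0.37, SE 0.084, adjusted p = 0.00528). The ratio of EDEM2 to EDEM3 was 5.66 to 7.55 with sh-NC and 2.32 to 2.58 with sh-CLGN.

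The lectins that read the trimmed glycans moved apart as well. OS9 measured 65.3, 65.4 and 59.6 FPKM with sh-NC and 47.1, 48.4 and 47.3 with sh-CLGN, where each library was lower (log2 change -0.41, SE 0.052, limma adjusted p = 0.000262), a call lost after quantile normalization (-0.12). ERLEC1, or XTP3-B, measured 33.0, 29.1 and 31.1 FPKM with sh-NC and 46.6, 44.0 and 43.9 with sh-CLGN, where each library was higher (log2 change 0.52, SE 0.058, adjusted p = 0.000139). The ratio of OS9 to ERLEC1 was 1.92 to 2.25 with sh-NC and 1.01 to 1.10 with sh-CLGN. The derlins, rhomboid-like proteins that take part in moving clients across the membrane, showed the same kind of split. DERL1 measured 7.85, 7.37 and 7.93 FPKM with sh-NC and 5.36, 5.47 and 5.46 with sh-CLGN (log2 change -0.44, adjusted p = 0.000229). DERL2 measured 8.83, 8.66 and 9.08 FPKM with sh-NC and 11.0, 10.9 and 10.4 with sh-CLGN (log2 change 0.26, adjusted p = 0.0028). The call of DERL2 was lost after a correction for GC content (0.11). Neither derlin overlapped between groups, and their ratio, DERL1 to DERL2, was 0.852 to 0.889 with sh-NC and 0.486 to 0.525 with sh-CLGN. The third derlin, DERL3, was at 0 in 4 libraries and shared 77.0% of its exon bases with SMARCB1 on the opposite strand.

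At the membrane, the core ubiquitin ligase did not pass. SYVN1, or HRD1, the ligase itself, measured 9.71 ± 0.953 and 9.48 ± 0.482 FPKM (log2 change -0.03, 95% interval -0.21 to 0.15), and SEL1L, its adaptor, measured 11.7 ± 0.936 and 12.3 ± 0.384 FPKM (log2 change 0.07, 95% interval -0.08 to 0.22). The libraries of both overlapped. HERPUD1, a stress-induced scaffold of the same complex, measured 18.0, 19.0 and 20.1 FPKM with sh-NC and 22.4, 22.0 and 21.3 with sh-CLGN, without overlap (log2 change 0.20, SE 0.055, limma adjusted p = 0.0136). It was not called without sh-CLGN replicate 1 (0.18). Other genes shared 554 of the exon bases of SYVN1 (10.1%). FAU, on the same strand, shared 398 bases and measured 100.8 and 88.3 FPKM on average in sh-NC and sh-CLGN. MRPL49, on the opposite strand, shared 356 bases and measured 16.2 and 15.6 FPKM. Reads in these shared bases cannot be assigned, so the level of SYVN1 is uncertain.

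In this branch, the conjugating enzymes UBE2J1 and UBE2G2, which work with the ligases, and VCP and NPLOC4 of the extraction machinery were lower. Genes of that machinery outside the 41 were mixed, with UBXN8 higher, UBXN6 lower and UFD1 not called. The ubiquitin-conjugating enzyme UBE2J1, which is anchored in the ER membrane, measured 29.9, 30.5 and 32.9 FPKM with sh-NC and 24.0, 23.9 and 22.9 with sh-CLGN (log2 change -0.38, limma adjusted p = 0.000399), a call lost after quantile normalization (-0.11). UBE2G2, its cytosolic counterpart, measured 17.7, 18.2 and 18.7 FPKM with sh-NC and 12.4, 12.5 and 12.4 with sh-CLGN (log2 change -0.52, adjusted p = 4.43e-05). Each was lower in all 3 sh-CLGN libraries. VCP, or p97, the ATPase that extracts clients, measured 194, 210.3 and 195 FPKM with sh-NC and 144, 147 and 144 with sh-CLGN (log2 change -0.46, adjusted p = 0.000107). NPLOC4, a cofactor that binds ubiquitin for VCP, measured 41.9, 44.5 and 39.0 FPKM with sh-NC and 27.4, 28.7 and 30.4 with sh-CLGN (log2 change -0.52, adjusted p = 0.000217). Again no sh-CLGN library reached the sh-NC range.

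Summed over each branch, the level with sh-CLGN relative to sh-NC was lowest in the sensors and highest in the chaperones, given as a description with no test. The summed FPKM of the 9 sensor genes was 469 ± 14.1 with sh-NC and 281 ± 3.76 with sh-CLGN (SD over 3 libraries), or 60.0% of the sh-NC mean. XBP1 made up most of it, and without XBP1 the sum was 67.9% of the sh-NC mean. The 11 chaperones summed to 685 ± 12.9 and 642 ± 11.1 FPKM (93.8%), and to 96.1% without HSPA5 and HSP90B1. The translocon genes summed to 370.2 ± 12.2 and 325 ± 10.9 FPKM (87.8%). The ERAD genes summed to 503 ± 10.9 and 402 ± 2.61 FPKM (79.8%), and to 84.6% without VCP. The libraries of the groups did not overlap in any of the 4 sums of deposited FPKM. The direction of the chaperone and translocon sums depended on the scaling. With TPM scaling the chaperones came to 102% of the sh-NC mean, with overlap, and to 105% without HSPA5 and HSP90B1. With scaling by read totals they came to 107%, with all sh-CLGN libraries above, and the translocon came to 100.5%, with overlap. The sensors (65.5% and 68.7%) and the ERAD genes (87.1% and 91.4%) stayed lower in every sh-CLGN library under both of these scalings.

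**Figure D4:**
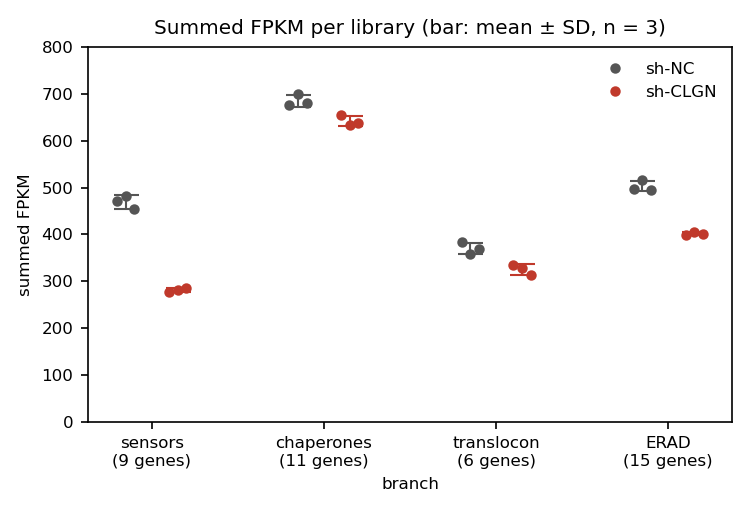
Summed FPKM of each branch in each library (y axis, starting at 0), with points for libraries and error bars spanning the mean ± SD (3 libraries per group). The sensors went from 469 to 281 FPKM and the ERAD genes from 503 to 402, while the chaperones, at 685 and 642, turned to 102% of sh-NC with TPM scaling.

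Base composition is given as a description beside the calls. The 10 higher genes had a median GC content of 39.7% (35.9 to 47.9%) and the 20 lower genes one of 50.7% (39.4 to 65.5%), beside a median of 48.4% over the tested genes. After the trend of level on GC content was removed from each library, 14 of the 40 genes were higher and 19 were lower. ATF6B (log2 change -1.45), DNAJB9 (1.41), EDEM2 (-0.78), XBP1 (-0.64) and ERLEC1 (0.42) remained called in their direction. FICD (0.32), MANF (0.35), SIL1 (0.17), CRELD2 (0.19) and SYVN1 (0.22) became higher and ATF6 (-0.24) lower, while HSPA5, DNAJB11 and DERL2 were no longer called. The correction moved 11 other calls by over 1.5 times without ending them, to 0.19 for MBTPS2 and EDEM3, 0.28 for DNAJC10, 0.26 for SEC62, 0.30 for HERPUD1, -0.23 for HYOU1, -0.27 for SDF2L1 and VCP, -0.22 for SEC61A1, -0.31 for SEC63 and -0.19 for OS9. The part of GC content in the uncorrected values was not tested further.

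**Figure D5:**
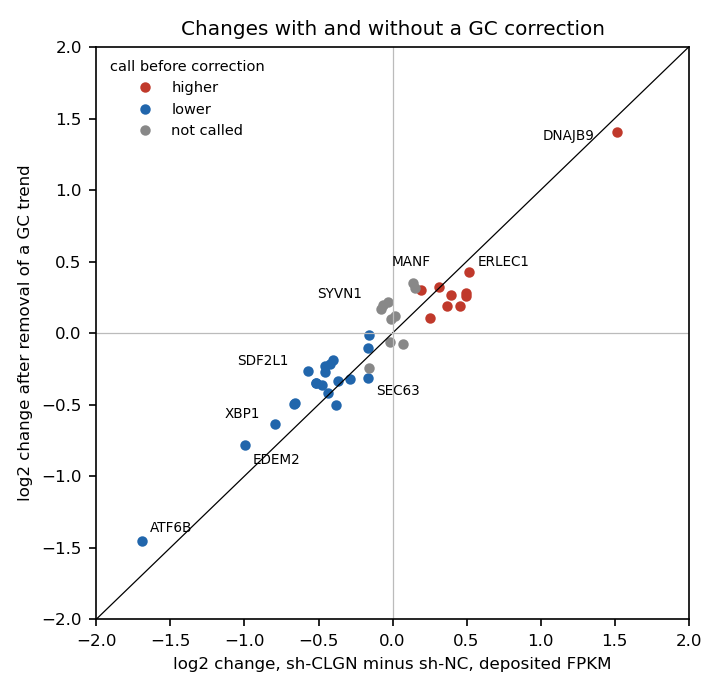
Log2 change before (x axis) and after (y axis) removal of the GC trend for the 40 tested genes, coloured by their call before it, with the diagonal marking no difference. ATF6B moved from -1.69 to -1.45 and DNAJB9 from 1.52 to 1.41, while MANF moved from 0.14 to 0.35 and ATF6 from -0.16 to -0.24.

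A hairpin can also act on transcripts that match its seed, so the 3′ untranslated regions were searched for 3 overlapping 7-base words at the end of the hairpin's target sequence. The words were ATACCAC, the word that begins a base later, which is TACCACA, and the last word of the target, which is ACCACAA. At least 1 of these words was found in 14 of the 40 tested genes, 35.0% against 21.5% of the tested genes with an annotated region of at least 50 bases. These shares were not adjusted for the length of the regions, which was 17332 bases in DNAJC10. Of the 14, 6 were higher in sh-CLGN and 5 were lower, beside 26.7% higher and 39.0% lower among all tested genes. The lower ones were ERN1, CREB3L2, SEC63, SERP1 and UBE2J1. DNAJB9, DNAJC3, DNAJC10, MBTPS2, SEC62 and HERPUD1 carried a word and were higher. ATF6B, EDEM2 and XBP1 carried none of the words in their annotated regions.

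Genes of the same pathways outside the 41 were described by lists. Of 14 genes of the PERK arm, which carries the signal of PERK through the factor ATF4, 2 were higher and 10 were lower. That is 14.3% and 71.4%, against 26.7% and 39.0% of all tested genes. The median log2 change was -0.83, against -0.08 over all. Past the size limit as well were 7 genes, 50% against 6.28% of all. These were CHAC1, a glutathione-degrading enzyme (-2.24), ATF3, a stress transcription factor (-1.91), DDIT4, an inhibitor of mTORC1 (-1.79), SESN2, a stress-induced sestrin (-1.70), PPP1R15A, the stress-induced phosphatase subunit that restores translation (-1.57), TRIB3, a pseudokinase (-1.56), and NUPR1, a stress-induced chromatin protein that rose (1.33). NUPR1 measured 0.695, 0.628 and 0.638 FPKM with sh-NC and 3.20, 3.15 and 3.10 with sh-CLGN. All 3 sh-NC values of NUPR1 lay below the filter of 1 FPKM, so it was tested through the group in which it was high, and its call is no support for the count of 7. EIF2S1, the substrate of PERK, was the other higher gene (0.48), and PPP1R15B and ASNS were not called. The 10 lower genes had a median GC content of 58.5% and the 2 higher ones 44.8%, beside 48.4% over the tested genes. Values after the GC correction are not given for this list or those below. The part of GC content in them was not tested. All of these lists were chosen with earlier results of these data known.

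Of 33 other ERAD genes, 32 were tested. Higher were 2 (6.25%, against 26.7% of all tested genes) and lower were 15 (46.9% against 39.0%). The median was -0.18, and none was also past the size limit. The lower genes had a median GC content of 59.1% and the higher ones 40.5%. Among the leading ones by adjusted p were MAN1B1, a mannosidase that also trims glycans of misfolded proteins (log2 change -0.74, limma adjusted p = 2.61e-05), and UBXN8, a membrane adaptor of VCP (0.95, adjusted p = 4.56e-05). MAN1B1 measured 24.7, 24.6 and 22.0 FPKM with sh-NC and 13.6, 13.7 and 14.2 with sh-CLGN, and so was lower in each library, as EDEM2 was. UBXN8 measured 2.5, 2.62 and 2.41 FPKM with sh-NC and 6.49, 5.76 and 5.08 with sh-CLGN, higher in each. ATXN3 was not tested.

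Of 33 other genes of ER targeting and translocation, 11 were higher (33.3%, against 26.7% of all tested genes) and 10 were lower (30.3% against 39.0%). The median was 0.08, and none was also past the size limit. EMC8 (-0.76, limma adjusted p = 1.44e-05) and EMC1 (-0.51, adjusted p = 6.1e-05), subunits of the complex that inserts membrane proteins, were lower. TRAM1, a membrane protein beside the Sec61 channel, rose from 68.1, 65.5 and 75.3 FPKM to 119, 126 and 116 FPKM (0.78, adjusted p = 2.7e-05), against the direction of SEC61A1. Of 21 other factors of the response and ER J proteins, 19 were tested. Higher were 8 (42.1%, against 26.7% of all tested genes) and lower were 6 (31.6% against 39.0%), with a median of 0.12. CREB3L1, counted as higher, passed the filter of 1 FPKM through the sh-CLGN libraries alone. Its call is no support for the count of 8. DNAJB12, a membrane J protein that recruits cytosolic Hsp70 for degradation, was lower (-0.90, adjusted p = 7.5e-06), as was TRAF2, an adaptor that binds IRE1 (-0.60, adjusted p = 8.21e-05), and UFM1, a ubiquitin-like modifier of ER proteins, was higher (0.85, adjusted p = 1.51e-05). DNAJC18 and ERN2, the second IRE1 gene, were below the filter.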

How the data were processed

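RNA of 6 Hep-G2 libraries was sequenced after library preparation with a NEBNext Ultra kit. Per the submitters' processing notes, HISAT2 2.0.5, featureCounts and GRCh38 were used, and strand use was not given in the sources used here. The authors deposited FPKM per gene, whose 58735 positions equalled GENCODE 29. Multiplied by gene length, all values gave whole reads within 0.01, and 1 read on 1 kb was worth 0.0589 to 0.0717 FPKM, counting error only.

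log2(FPKM + 1) was fitted with limma 3.58.1 in R 4.3.3 (eBayes with trend, two-sided, Benjamini-Hochberg over 13074 genes with 1 FPKM in 3 libraries), and the fit was tested on simulated data. The GC trend was removed with a lowess span of 0.3, also in R. Reads were recovered and sequences searched in Python 3.11.15. The genes, lists, motifs and ratio pairs were chosen with earlier results of these data known. Text names at least all 41 genes, CLGN, and of each list the genes past both thresholds and the 3 of smallest adjusted p. A gene that meets this rule is not reported here. Genes sharing exon bases with others (22 of 41) carry uncertain reads. The deviations from the group mean of libraries with the same number correlated at -0.02, -0.05 and -0.15, so the numbers do not pair them. Protein sequences were not used here.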

Additional observations from a re-analysis of the deposited data

How the results depend on the processing

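Under 17 alternatives, 20 of the 30 called genes kept their call and direction in each (8 higher, 12 lower), and 10 lost it in at least 1, namely HSPA5, DNAJB11, SEC63, SERP1, HERPUD1 and DERL2, and under quantile normalization alone SEC61A1, EDEM1, OS9 and UBE2J1. Each of the 10 uncalled genes passed in at least 1. Median-ratio scaling, 1 of the 17, divided all 6 libraries by the same factor (1.01), so it could hardly alter a call. With the replicate number as a block, 10 genes were higher and 17 lower, and HSPA5 (-0.16), DNAJB11 (-0.16) and SEC63 (-0.17) were no longer called. Over the whole table the block gave 404 higher and 417 lower genes past both thresholds, 818 of them shared with the unblocked 821. Leaving out a library gave 9 to 11 higher genes, 17 to 19 lower, 2 to 3 past both thresholds and a median of -0.18 to -0.13. EDEM2 passed both with a pseudocount of 0.1 and with voom on recovered reads. Quantile normalization gave 16 higher and 12 lower genes and turned HSPA5 to 0.18 (limma adjusted p = 0.025), HSP90B1 to 0.29, DNAJB11 to 0.050, SEC61G to 0.27 and SEC63 to 0.054. Scaling by read totals turned HSPA5 to 0.032, HSP90B1 to 0.18, DNAJB11 to 0.026 and SEC63 to 0.018, and GC correction turned SIL1 to 0.17, CRELD2 to 0.19 and SYVN1 to 0.22. The median of the 40 genes moved from -0.16 to -0.038 with TPM scaling, 0.052 with quantile normalization, 0.029 with read totals and -0.093 with GC correction, where the median of all tested genes shifted by 0.11, 0.06, 0.16 and 0.07. As alternatives chosen after seeing the data, the branch sums relative to sh-NC became 65.5% (sensors), 102% (chaperones), 95.9% (translocon) and 87.1% (ERAD) with TPM scaling, and 68.7%, 107%, 100.5% and 91.4% with read totals. Of the whole table, 404 higher and 417 lower genes past both thresholds became 925 and 681 with a pseudocount of 0.1 and 989 and 733 with voom. The higher count became 1002 with TPM scaling, and the lower count became 235 with read totals and 242 with GC correction. The cause was not tested.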

Other observations

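Within the lists outside the 41 genes, some families of genes were read together, chosen after their values were seen. The UFMylation genes, which attach UFM1 to ribosomes at the ER membrane, were higher in each sh-CLGN library. UFL1, the ligase, measured 6.35, 6.05 and 7.82 FPKM with sh-NC and 11.3, 10.9 and 10.7 with sh-CLGN (log2 change 0.64, limma adjusted p = 0.00038), and DDRGK1, its membrane anchor, measured 35.8, 38.5 and 34.6 FPKM and 46.9, 46.9 and 50.1 (0.39, adjusted p = 0.000468). The signal peptidase, which cuts signal sequences, was split between its catalytic subunits. SEC11A measured 19.4, 19.1 and 20.6 FPKM with sh-NC and 28.7, 27.7 and 26.3 with sh-CLGN (0.46, adjusted p = 0.000161), while SEC11C measured 9.60, 8.38 and 9.51 FPKM and 5.95, 5.95 and 5.77 (-0.56, adjusted p = 0.000153). Of its other subunits, SPCS1 (-0.32, adjusted p = 0.00698) and SPCS2 (-0.45, adjusted p = 0.0242) were lower and SPCS3 (0.08) was not called.

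Among the relatives of CREB3L2, CREB3L3, the liver-enriched member, measured 52.2, 43.1 and 41.1 FPKM with sh-NC and 26.2, 25.7 and 29.4 with sh-CLGN, and was lower in each (-0.72, limma adjusted p = 0.00031). CREB3L4 was higher (0.22, adjusted p = 0.0107) and CREB3 was not called (-0.06). CREB3L1, or OASIS, measured 0.817, 0.696 and 0.608 FPKM with sh-NC and 1.65, 1.98 and 2.01 with sh-CLGN. It passed the filter of 1 FPKM through the sh-CLGN libraries alone, so its test result is not given here. Its values stand beside the higher summed level of the fibroblast and stellate markers, whose part was not tested.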
